A study of Mus musculus with 8 samples.

Results

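The genes described here are 9 members of the interferon regulatory factor (IRF) and signal transducer and activator of transcription (STAT) families, namely Irf3, Irf7, Irf5, Irf1, Irf2, Irf9, Stat2, Stat3 and Stat4. Their chromatin was read from every region of an ATAC-seq count table that overlapped the RefSeq span of a gene or lay within 25 kb of it (GRCm38). The rule gave 83 of 59906 regions, and no region belonged to 2 of the genes. ATAC-seq uses a transposase that inserts adapters into accessible DNA, so the count of a region is a measure of how open it was. All 8 libraries were made from cDC1 of mouse spleen, the conventional dendritic cells of type 1, which specialise in cross-presenting antigen to CD8 T cells. In 4 of them, labelled OPA1KO, the mice carried CD11c-Cre and a floxed OPA1 gene, which encodes a mitochondrial inner-membrane GTPase. The other 4 were from WT mice, and the labels do not give strain, age, sex, or whether the WT mice carried Cre. The promoter of Itgax (CD11c) is active in many dendritic cells and some macrophages, so deletion under this Cre is not limited to cDC1.

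IRF proteins bind DNA elements built from GAAA repeats, known as interferon-stimulated response elements (ISRE). IRF3, IRF5 and IRF7 lie dormant in the cytoplasm until pattern-recognition receptors lead to their phosphorylation, and then switch on interferon and cytokine genes. STAT proteins are phosphorylated by Janus kinases (JAK) at cytokine receptors and bind palindromic gamma-activated sites (GAS). IRF9 and STAT2 meet both systems in the ISGF3 complex, the mediator of type I interferon signalling. IRF1 is an inducible activator and IRF2 its constitutive counterpart and frequent antagonist, while STAT3 serves receptors such as those for IL-10 and IL-6, and STAT4 that for IL-12.

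The promoter sequences of 4 members are shown because they hold the binding-site letters of the families themselves, so that IRF or STAT genes carry ISRE or GAS letters at their own starts. They are RefSeq windows on GRCm38.p6 with 250 bases before and 50 from each start, written 5′ to 3′ on the gene's strand. Capitals mark GAS letters (TTCNNNGAA), the ISRE core (a pair of GAAA runs with any 2 bases between them) and the κB decamer, the site class of NF-κB, each searched on both strands. None of the matches overlapped another.
Irf1 promoter, chr11:53769764-53770063, plus strand: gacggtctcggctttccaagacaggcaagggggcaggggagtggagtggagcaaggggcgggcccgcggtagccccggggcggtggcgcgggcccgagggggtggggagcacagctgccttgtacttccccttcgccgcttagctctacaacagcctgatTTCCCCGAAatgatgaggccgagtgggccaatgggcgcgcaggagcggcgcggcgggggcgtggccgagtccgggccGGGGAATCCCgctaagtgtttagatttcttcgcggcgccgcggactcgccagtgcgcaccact
Irf2 promoter, chr8:46739495-46739794, plus strand: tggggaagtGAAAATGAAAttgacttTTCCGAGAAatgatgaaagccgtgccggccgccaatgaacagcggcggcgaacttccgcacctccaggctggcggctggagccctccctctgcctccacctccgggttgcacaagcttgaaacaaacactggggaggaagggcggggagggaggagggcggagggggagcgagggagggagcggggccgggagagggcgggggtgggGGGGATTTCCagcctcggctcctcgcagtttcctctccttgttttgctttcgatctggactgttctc
Stat2 promoter, chr10:128270248-128270547, plus strand: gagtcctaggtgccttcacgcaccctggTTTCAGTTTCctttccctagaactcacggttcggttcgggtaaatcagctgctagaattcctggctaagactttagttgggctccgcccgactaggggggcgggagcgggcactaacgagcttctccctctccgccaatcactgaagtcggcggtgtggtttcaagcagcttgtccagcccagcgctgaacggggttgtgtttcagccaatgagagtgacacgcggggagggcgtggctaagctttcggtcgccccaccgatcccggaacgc
Stat4 downstream start, chr1:52007990-52008289, plus strand: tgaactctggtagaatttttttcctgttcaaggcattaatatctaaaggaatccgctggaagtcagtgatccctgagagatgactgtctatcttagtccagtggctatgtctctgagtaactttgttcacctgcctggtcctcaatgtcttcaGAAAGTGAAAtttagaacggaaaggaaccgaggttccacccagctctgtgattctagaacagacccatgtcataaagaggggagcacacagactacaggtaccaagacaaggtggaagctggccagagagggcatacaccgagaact

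The Irf1 window held a GAS match, TTCCCCGAA, beginning 90 bases before the start, and a κB match, GGGGAATCCC, beginning 13 bases before it. The Irf2 window held the ISRE core GAAAATGAAA at 241 bases, the GAS match TTCCGAGAA at 224 bases and a κB match, GGGGATTTCC, at 17 bases before its start. In the Stat2 window the ISRE core lay on the minus strand, as TTTCAGTTTC, 222 bases before the start. Stat4 has a pair of RefSeq starts, and the window of the downstream one held GAAAGTGAAA at 97 bases before it. Of 32851 promoter windows of the same length, 8.30% held the GAS letters, 3.44% the ISRE core and 8.46% the κB decamer. Among the 12 windows of the 9 genes, GAS was in 2, the ISRE core in 3 and κB in 2. The Irf3, Irf5, Irf7, Irf9 and Stat3 windows, with both starts of Irf9, held none of the 3 motifs, nor did the downstream start of Irf1 or the upstream start of Stat4. The TATA box letters TATAAA were found only in the Irf7 window among these 12 (13.6% of all windows). These are matches of letters and not measured binding sites.

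Levels are given as CPM, a region's share of the counts of its library scaled to 1000000 counts and adjusted with TMM factors, as mean ± SD over 4 libraries per group. Fold changes are log2 of OPA1KO over WT ± standard error from edgeR's quasi-likelihood model fitted to all tested regions. Total counts in regions ranged from 4660826 to 7590578 per library. The labels do not tie a library to an animal, so p-values cover the spread among these libraries, which may be technical. In bulk cells, a change in the share of cells with an open region and a change in openness per cell cannot be told apart.

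Promoter regions of 8 of the 9 genes were present in the table, and their levels in OPA1KO and WT libraries lay close together. Per kilobase of region, over all 8 libraries, Stat3 had the highest promoter level, at 276 ± 31.2 CPM per kb (SD, n = 8), above 99.0% of the regions at RefSeq promoters. Irf2 followed at 175 ± 19.4 CPM per kb and Stat2 at 108 ± 7.45 CPM per kb. Irf1 was at 95.7 ± 9.65 CPM per kb and Irf5 at 66.8 ± 8.66 CPM per kb. The lowest were Irf9 at 64.5 ± 2.21, Irf3 at 48.3 ± 3.65 and Irf7 at 41.5 ± 3.07 CPM per kb. In this order the library ranges of Stat2 and Irf1 overlapped, as did those of Irf1 and Irf5, Irf5 and Irf9, and Irf3 and Irf7. Stat3, Irf2 and Stat2 were apart from each other, as were Irf9 and Irf3. Irf7, the master regulator of interferon-alpha genes in mouse, had the lowest mean of the 8, above 39.0% of promoter regions.

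**Figure D1:**
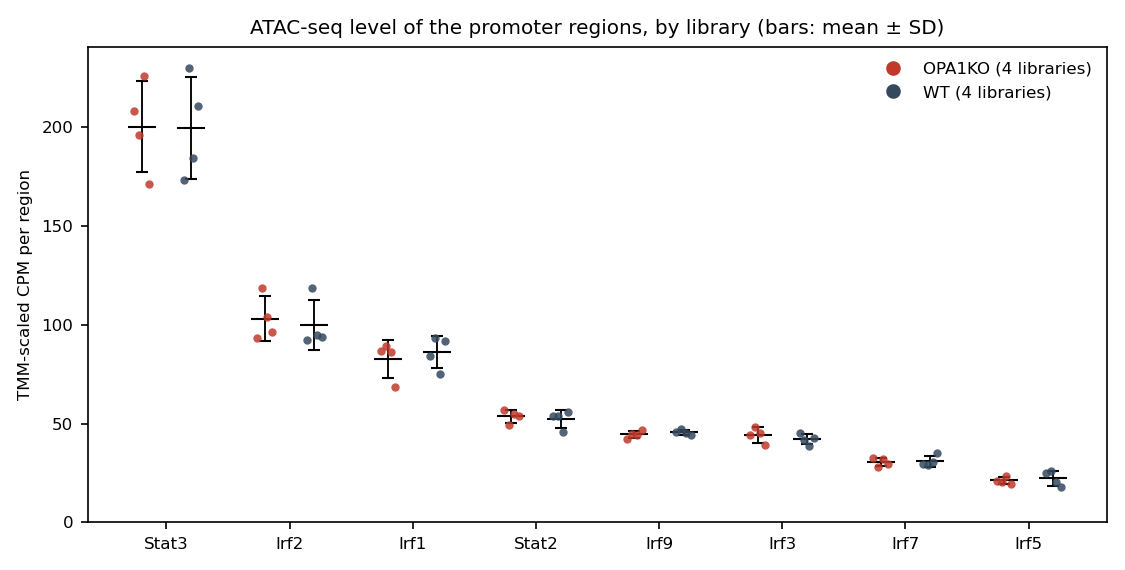
TMM-scaled CPM (y axis) of the region over the promoter of each of 8 genes (x axis), with OPA1KO libraries in red and WT libraries in dark blue, and bars for mean ± SD. Within every gene the points of the groups overlap, with Stat3 near 200.4 CPM in OPA1KO and 199.6 CPM in WT libraries.

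Stat4 was the exception. Its upstream RefSeq start, at 51987148 on chromosome 1, had no region in the table nearer than 9.86 kb. At the downstream start, 52008240, the nearest region lay 160 bp away, at 52008400 to 52008793, so it missed the printed window. This region had 10.95, 15.2, 15.4 and 15.7 CPM in OPA1KO libraries, against 13.7, 14.6, 16.0 and 11.1 CPM in WT libraries. The groups overlapped (log2 fold change 0.05 ± 0.18, edgeR adjusted p = 0.986). The inner start was therefore the one with measured accessibility beside it, at 35.8 CPM per kb over the 8 libraries, below the mean of each of the 8 promoter regions.

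Across all members, 81 of the 83 regions passed the filter on low counts and were tested, and 0 were called at an adjusted p of 0.05 by edgeR's quasi-likelihood test. DESeq2 and limma-voom also called 0 of them. Over all 59247 tested regions edgeR called 12 (0.0203%), 3 higher (0.00506%) and 9 lower (0.0152%) in OPA1KO cells. At an unadjusted p under 0.05 there were 5 of 81 member regions (6.17%), against 6.38% of all tested regions, and 3 of them were higher (2.92% of all regions) and 2 lower (3.46%). The member count was 1 without WT replicate 4 and 2 without OPA1KO replicate 1. The 4 OPA1KO libraries lay wholly above or below the 4 WT libraries at 3 of 81 (3.70%), against 3.95% of all regions. They were higher in OPA1KO at 2 (1.84% of all regions) and lower at 1 (2.11%). Both shares were near those of the whole table. Of the 81, 36 had a positive and 45 a negative log2 fold change, with a median of −0.02, against 49.3% positive and a median of 0.00 over all regions. The 2 regions below the filter, near Irf5 and Stat4, had at most 8 counts in any library.

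**Figure D2:**
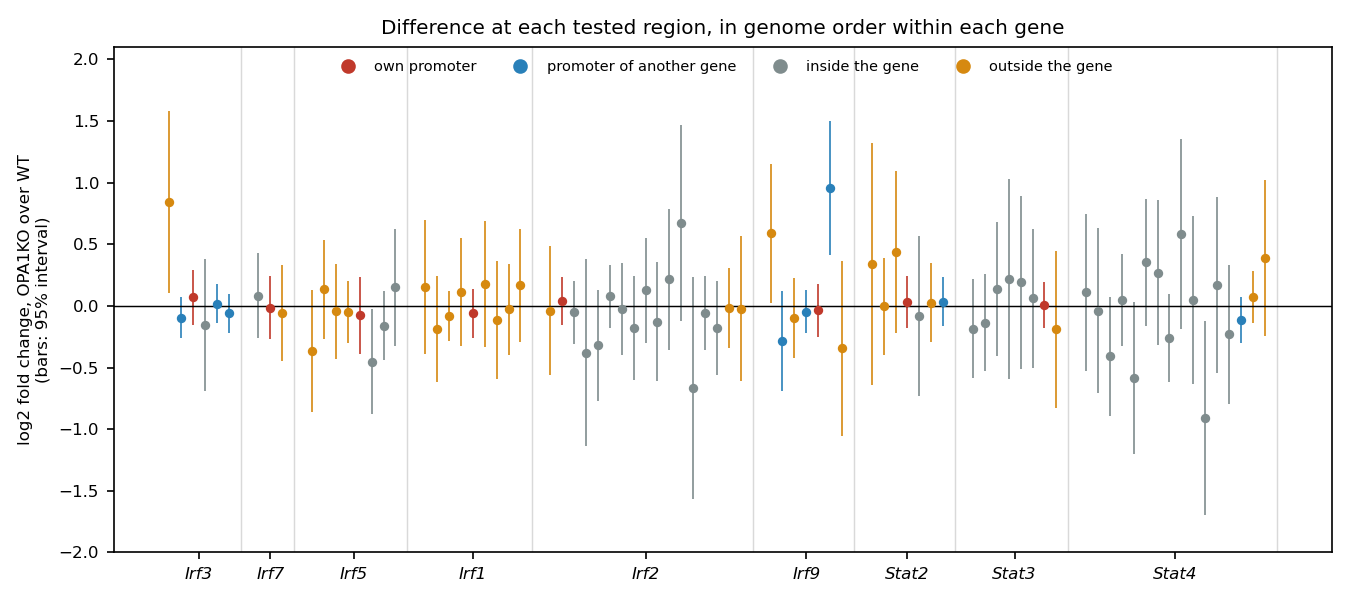
Log2 fold change of OPA1KO over WT (y axis) at each of the 81 tested regions with its 95% interval, in genome order within each gene (x axis) and coloured by the region's class. Promoter regions of the members (red) lie between −0.08 and 0.07 with narrow intervals, while regions of low counts inside the genes spread from −0.91 to 0.67.

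The members' own promoter regions varied least. Their 8 log2 fold changes lay between −0.08 and 0.07 with 4 positive and 4 negative, and a median size of 0.04, compared with 0.09 over the 9740 tested regions at RefSeq promoters. The 38 regions inside the genes had a median size of 0.18 and the 27 tested ones outside them 0.11. For the 8 tested regions at promoters of other genes it was 0.08, with values from −0.28 to 0.95. These classes also differ in level. Median CPM was 49.1 at the members' own promoters, 85.7 at promoters of other genes, 6.01 inside the genes and 8.004 outside them. The part of level in this spread was not tested.

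**Figure D3:**
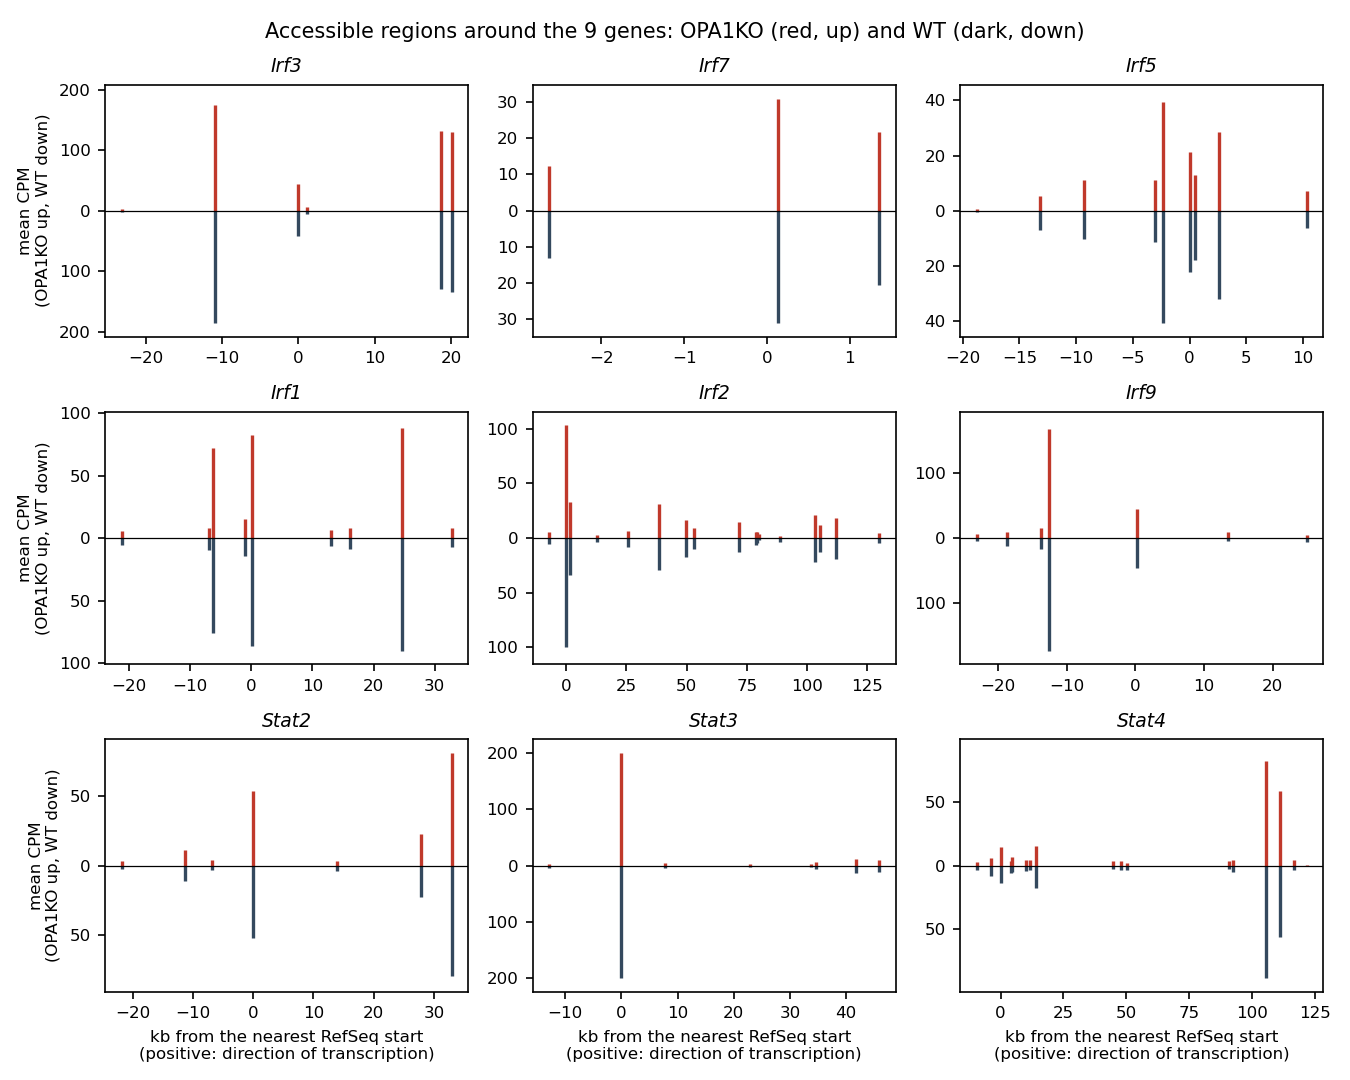
Mean CPM of each region (y axis, OPA1KO upward in red and WT downward in dark blue) against the distance of its centre from the nearest RefSeq start in kb (x axis, positive in the direction of transcription), 1 panel per gene. Upward and downward bars mirror each other at the strong regions. Stat3 has 1 tall promoter bar and Irf1 has 3 tall bars.

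The sensor-activated factors Irf3, Irf7 and Irf5 had different surroundings. Irf3 encodes the factor that TBK1 phosphorylates downstream of cytosolic nucleic acid sensing. Its promoter region (chromosome 7, 44997145 to 44998038) also covers the promoter of Bcl2l12, a gene of the BCL2 family transcribed the other way. It had 44.4, 48.4, 45.0 and 39.0 CPM in OPA1KO libraries, against 45.2, 41.8, 38.8 and 42.7 CPM in WT libraries. The ranges overlapped, and the log2 fold change was 0.07 ± 0.11 (95% interval −0.16 to 0.29, edgeR adjusted p = 0.954). Only 8.72% of the summed CPM within 25 kb of Irf3 came from this region. Another 89.6% lay at the promoters of the neighbours Prmt1, Scaf1 and Rras, so the summed level around Irf3 mostly describes other genes.

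A weak region 23.1 kb before Irf3, at 44974408 to 44974595, had separated groups. It lies within 1 kb of an end of Cpt1c, a brain-enriched member of the carnitine palmitoyltransferase family. Levels were 3.98, 3.08, 3.62 and 3.12 CPM in OPA1KO libraries, against 1.52, 2.65, 1.899 and 1.61 CPM in WT libraries. Each OPA1KO library was higher than each WT library, by 0.84 ± 0.36 on the log2 scale (95% interval 0.10 to 1.58). It did not pass over all regions (edgeR adjusted p = 0.719), and its counts ran from 9 to 28 per library.

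Irf7 had 3 regions within 25 kb, the fewest of the 9 genes, and 47.8% of their CPM lay at its promoter. The promoter region (chromosome 7, 141265919 to 141266662) had 32.9, 28.3, 31.9 and 29.7 CPM in OPA1KO libraries, against 29.8, 29.0, 30.4 and 35.1 CPM in WT libraries. The groups overlapped (−0.02 ± 0.13, 95% interval −0.27 to 0.24, edgeR adjusted p = 0.995). A region inside the gene at 141264754 to 141265387 had 15.1, 25.2, 23.1 and 23.3 CPM in OPA1KO libraries, against 22.7, 15.6, 22.4 and 21.2 CPM in WT libraries. Each group thus had 1 low library there, OPA1KO replicate 1 and WT replicate 2, and the difference was 0.08 ± 0.17 (edgeR adjusted p = 0.967).

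Irf5, which acts downstream of MyD88 in Toll-like receptor signalling, had its accessibility spread over several regions near the start. The region over the RefSeq promoter window (chromosome 6, 29526491 to 29526816) was at 21.2 ± 1.84 CPM in OPA1KO and 22.3 ± 3.797 CPM in WT cells (n = 4 each). A region with its nearer edge 1.55 kb outside the gene span, at 29524045 to 29524583, was the strongest around Irf5, at 39.3 ± 3.52 CPM in OPA1KO and 40.9 ± 6.91 CPM in WT cells. The strongest region inside the gene, 29529034 to 29529392, had 29.4, 30.3, 27.6 and 27.4 CPM in OPA1KO libraries, against 28.0, 39.1, 25.5 and 35.3 CPM in WT libraries. The WT libraries were the more scattered here, and the groups overlapped (−0.16 ± 0.14, 95% interval −0.44 to 0.12, edgeR adjusted p = 0.895). Just behind the promoter, the region at 29526923 to 29527223 had 11.9, 11.2, 16.5 and 12.5 CPM in OPA1KO libraries, against 10.5, 25.1, 16.5 and 19.7 CPM in WT libraries. WT replicate 1 was the lowest of all 8 and WT replicate 2 the highest, so the negative log2 fold change of −0.45 ± 0.21 went with overlapping groups (edgeR adjusted p = 0.755).

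Summed over its 9 regions, Irf5 was the member whose groups did not overlap. The sums were 132, 138, 141 and 139.9 CPM in OPA1KO libraries, against 141, 162, 149 and 143 CPM in WT libraries. The highest OPA1KO library was 140.6 CPM and the lowest WT library 140.8 CPM, so the groups were barely separate. The log2 fold change was −0.09 ± 0.06 (95% interval −0.21 to 0.03), with an adjusted p of 0.999 in edgeR over 16978 gene windows. Groups did not overlap in 3.15% of all gene windows, and OPA1KO was the lower in 2.26%. The value ran from −0.14 to −0.06 under the other settings tried.

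Irf1 and Irf2, the activator and its counterpart, had strong promoters. The Irf1 promoter region (chromosome 11, 53769705 to 53770587), which covers both RefSeq starts and the GAS and κB letters shown above, had 86.6, 89.4, 86.5 and 68.4 CPM in OPA1KO libraries, against 84.5, 93.3, 75.3 and 91.8 CPM in WT libraries. OPA1KO replicate 4 was the lowest of all 8 libraries, and the groups overlapped (−0.06 ± 0.10, 95% interval −0.26 to 0.14, edgeR adjusted p = 0.953). Irf1 also had 2 regions of about the promoter's level outside the gene and over 1 kb from any protein-coding gene end, at 88.6 and 96.6 CPM per kb against 95.7 CPM per kb at the promoter. The region 5.80 kb before the gene, at 53763382 to 53764217, had 78.2, 70.5, 72.7 and 66.7 CPM in OPA1KO libraries, against 72.8, 90.1, 66.9 and 74.6 CPM in WT libraries. The region 16.3 kb beyond its end, at 53794632 to 53795555, had 99.3, 89.0, 105 and 60.3 CPM in OPA1KO libraries, against 77.8, 115, 79.1 and 88.4 CPM in WT libraries. At both regions OPA1KO replicate 4 was the lowest of the 8 libraries and WT replicate 2 the highest, and the differences were −0.08 ± 0.10 and −0.03 ± 0.17 (edgeR adjusted p = 0.936 and 0.994). Regions outside the gene made up 71.8% of the CPM within 25 kb of Irf1.

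The Irf2 promoter region (chromosome 8, 46739357 to 46739937), which holds the ISRE, GAS and κB letters and also the promoter of the non-coding Gm16675, had 93.2, 119, 104 and 96.6 CPM in OPA1KO libraries, against 92.4, 119, 94.9 and 93.8 CPM in WT libraries. Replicate 2 was the highest in both groups, and the log2 fold change was 0.04 ± 0.10 (95% interval −0.15 to 0.24, edgeR adjusted p = 0.971). Irf2 spans 107714 bp and had 13 further regions inside it, which together carried 55.8% of its CPM against 34.5% at the promoter. The smallest p of the gene was at 46819559 to 46819770, 79.9 kb inside, with 3.56, 3.81, 1.74 and 4.59 CPM in OPA1KO libraries, against 2.58, 2.80, 1.899 and 1.08 CPM in WT libraries. These groups overlapped (0.67 ± 0.39, edgeR adjusted p = 0.825). Of the 17 Irf2 regions, 5 were higher and 12 lower in OPA1KO cells, with a median log2 fold change of −0.04.

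Of the ISGF3 partners Irf9 and Stat2, Irf9 had the smallest SD between libraries among the 8 promoter regions, at 2.21 CPM per kb. The Irf9 region (chromosome 14, 55603874 to 55604573) had 42.2, 44.8, 44.5 and 46.7 CPM in OPA1KO libraries, against 45.9, 47.2, 45.1 and 44.5 CPM in WT libraries. The Stat2 region (chromosome 10, 128270198 to 128270687), over the ISRE core shown above, had 56.9, 49.3, 55.0 and 53.8 CPM in OPA1KO libraries, against 54.1, 53.9, 46.0 and 55.9 CPM in WT libraries. Groups overlapped in both genes, with log2 fold changes of −0.04 ± 0.10 for Irf9 (95% interval −0.25 to 0.18) and 0.03 ± 0.10 for Stat2 (−0.18 to 0.24) and edgeR adjusted p of 0.980 and 0.982. The Stat2 region also lies at an end of Apof, an apolipoprotein gene. In Stat2 the smallest p was at a weak region 6.75 kb before the gene, at 4.32 ± 1.21 CPM in OPA1KO and 3.19 ± 1.10 CPM in WT cells (n = 4 each, 0.44 ± 0.32, edgeR adjusted p = 0.877).

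The smallest p among all 81 member regions was near Irf9 but at another gene. The region at 55617819 to 55618219, 7.79 kb beyond the end of Irf9, covers the promoter of Rec8, which encodes a meiotic cohesin subunit. It had 9.53, 6.89, 7.37 and 14.8 CPM in OPA1KO libraries, against 4.56, 7.17, 3.16 and 4.66 CPM in WT libraries. WT replicate 2 lay above the lowest OPA1KO library, so the groups overlapped, and OPA1KO replicate 4 was the highest. The log2 fold change was 0.95 ± 0.27 (95% interval 0.41 to 1.499), with an edgeR adjusted p of 0.366. Over the other settings the adjusted p was at least 0.0694, its value without WT replicate 2. On the other side of Irf9, 23.0 kb before it, the region at 55580793 to 55581013 had 6.54, 5.62, 5.63 and 5.90 CPM in OPA1KO libraries, against 5.32, 4.52, 3.59 and 2.15 CPM in WT libraries. Every OPA1KO library was above every WT library there (0.59 ± 0.28, edgeR adjusted p = 0.766). This region lies within 1 kb of ends of the genes Emc9 and Psme1. It is named for its separated groups, after its values were seen. Between these regions lies the shared promoter of Psme2, a proteasome activator gene used in antigen processing, and Rnf31, a linear ubiquitin ligase gene, at 168 ± 12.7 CPM in OPA1KO and 174 ± 22.0 CPM in WT cells (−0.05 ± 0.09).

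**Figure D4:**
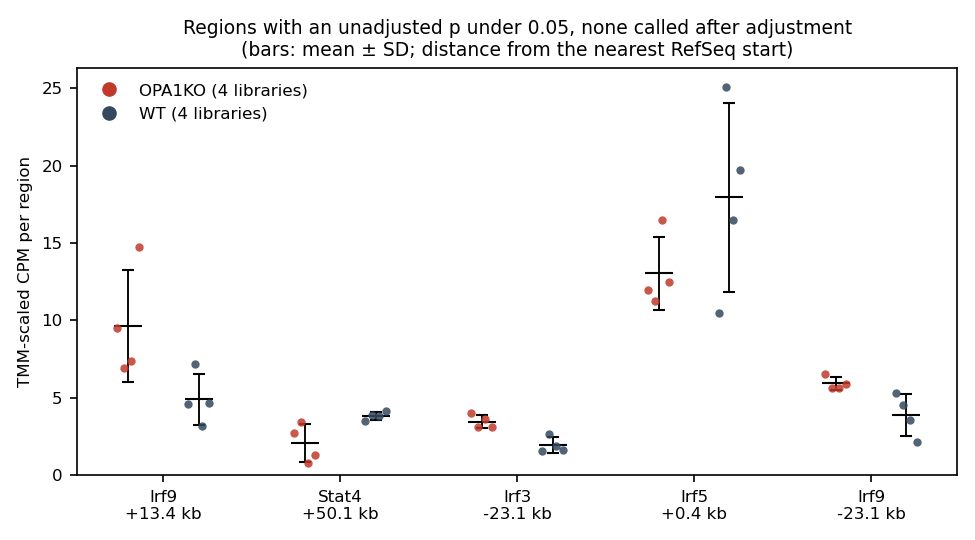
TMM-scaled CPM by library (y axis) at the 5 member regions with an unadjusted edgeR p under 0.05, labelled by gene and distance from the nearest RefSeq start, with bars for mean ± SD. OPA1KO libraries (red) are apart from WT libraries (dark blue) at 3 of them, 2 higher and 1 lower, and the adjusted p was 0.366 or more at all 5.

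Stat3 had a single dominant region. Its promoter (chromosome 11, 100939242 to 100939965, gene on the minus strand) carried 82.3% of the CPM within 25 kb, with 208, 196, 226 and 171 CPM in OPA1KO libraries, against 173, 230.2, 184 and 211 CPM in WT libraries. The groups overlapped almost fully, and the log2 fold change was 0.01 ± 0.09 (95% interval −0.18 to 0.19, edgeR adjusted p = 0.997). The 6 regions inside the gene ran from 2.50 to 11.9 CPM. The smallest p of the gene was at 100893473 to 100893789, 45.9 kb inside, with 10.3 ± 0.830 CPM in OPA1KO and 11.6 ± 2.42 CPM in WT cells (n = 4 each, −0.18 ± 0.20, edgeR adjusted p = 0.923).

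Stat4 had the opposite layout, with 17 regions and no dominant promoter. Its strongest region inside the gene, 52022027 to 52022629, had 11.8, 17.9, 13.4 and 17.2 CPM in OPA1KO libraries, against 21.4, 15.9, 17.5 and 17.0 CPM in WT libraries. These overlapped (−0.26 ± 0.17, 95% interval −0.62 to 0.09, edgeR adjusted p = 0.860). The strongest region of its window lay 6.41 kb beyond the gene at the promoter of the non-coding Gm31812 (52113596 to 52114094). It had 74.8, 86.3, 86.7 and 81.3 CPM in OPA1KO libraries, against 78.9, 94.1, 85.01 and 98.4 CPM in WT libraries. The groups overlapped there as well (−0.12 ± 0.09, edgeR adjusted p = 0.885). A weak region 50.1 kb inside from the downstream start, 52058251 to 52058489, had 2.70, 3.44, 0.804 and 1.31 CPM in OPA1KO libraries, against 3.497, 3.896, 3.797 and 4.12 CPM in WT libraries. Each OPA1KO library was lower than each WT library (−0.91 ± 0.39, 95% interval −1.70 to −0.12), and the region did not pass over all regions (edgeR adjusted p = 0.716). Its counts were 6 to 25 per library.

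Summing each gene's regions gave narrower intervals. The test over summed counts of 16978 protein-coding gene windows called 4 windows (0.0236%) and 0 of the 9 members, with edgeR adjusted p of 0.999 for each. DESeq2 and limma-voom called 0 of the 9 as well, and 0 had an unadjusted p under 0.05 (4.53% of all windows). Log2 fold changes ran from −0.09 in Irf5 to 0.06 in Stat2 (0.06 ± 0.06), with 95% limits between −0.21 and 0.20 over the 9. The Irf1 window had 319, 300.4, 325 and 237 CPM in OPA1KO libraries, against 279.6, 359, 271 and 304 CPM in WT libraries. It was the most scattered of the 9, with an SD of 40.1 CPM in OPA1KO and 39.7 CPM in WT cells around means of 296 and 303 CPM. The Irf2 window was less scattered, at 294 ± 7.83 CPM in OPA1KO and 295 ± 14.9 CPM in WT cells (n = 4 each). Windows count neighbouring promoters too, so for Irf3, Irf9, Stat2 and Stat4 they are not measures of those genes alone.

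**Figure D5:**
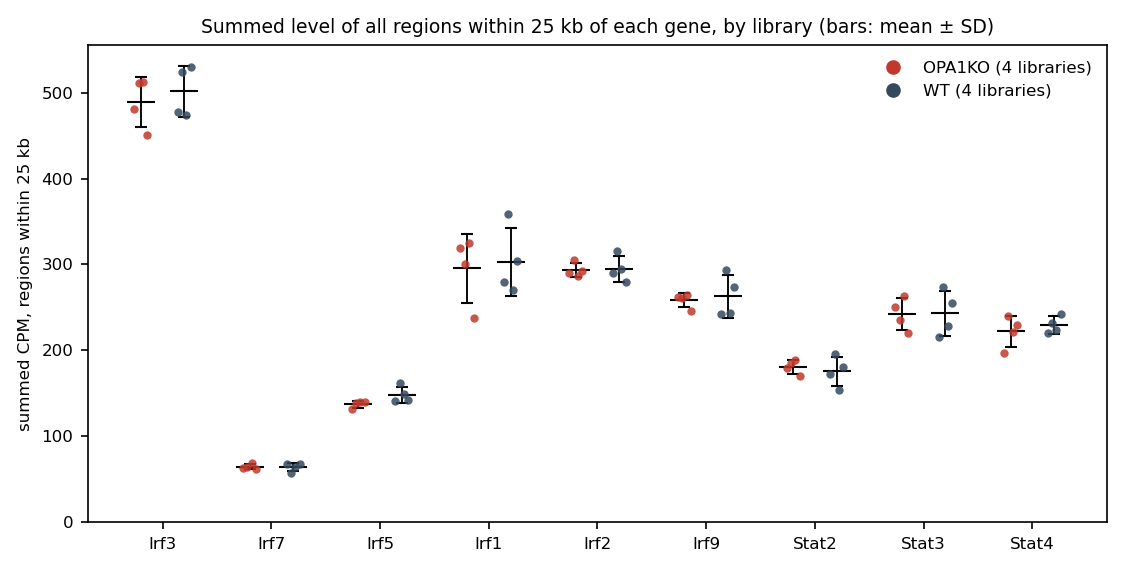
Summed TMM-scaled CPM (y axis) of all regions within 25 kb of each gene (x axis) in every OPA1KO library (red) and WT library (dark blue), with bars for mean ± SD. The groups overlap in 8 of the 9 genes, and in Irf5 the OPA1KO libraries end at 140.6 CPM where the WT libraries begin at 140.8 CPM.

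Differences between libraries of the same group were shared by several members. WT replicate 2 was the highest of the 8 libraries at 5 of the 8 promoter regions of the members and at 24.0% of all regions at RefSeq promoters, the largest share of any library. OPA1KO replicate 4 and WT replicate 3 were the lowest at 2 promoter regions each. By likeness over the 8 libraries, measured as Pearson's r of log2 CPM among 10548 regions at gene ends, the main Stat3 region was closest to that of Bsg (r = 0.990), the Irf3 region to that of Bmpr2 (r = 0.989) and the Irf5 region inside the gene to that of Tmem80 (r = 0.985). These are the highest of many values, all over the same 8 libraries, and the part of library-wide differences in them was not tested. For Stat3, 322 regions had an r above 0.9, and for Irf3 14.

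Other genes of the pathway, taken as their strongest region within 1 kb of a gene end, also held 0 calls in edgeR. Over all 10566 such regions 0 were called (0%), 428 had an unadjusted p under 0.05 (4.05%), 38.2% were higher and the median log2 fold change was −0.03. Across the 98 listed genes, 87 had a region, and 35 of 85 distinct regions were higher and 50 lower, with 5 at an unadjusted p under 0.05. Among receptors, 5 of 11 regions were higher and 6 lower (median −0.02), and 3 of the 11 had an unadjusted edgeR p under 0.05. Sensors and adaptors had 1 such region, target genes 1, and the other lists 0. The 2 receptors with the smallest p are named here. Ifnlr1, a chain of the interferon-lambda receptor, was at 9.53 CPM in OPA1KO and 5.67 CPM in WT cells (0.74 ± 0.24, edgeR adjusted p = 0.498), and Il12rb2, the IL-12 receptor chain that recruits STAT4, at 27.7 CPM in OPA1KO and 34.3 CPM in WT cells (−0.30 ± 0.13, adjusted p = 0.728). All 4 JAK kinase genes were close to 0, from 0.00 to 0.06.

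Upstream of the IRFs, sensors and adaptors had 8 of 19 regions higher and 11 lower (median −0.02). Myd88, the adaptor that feeds IRF5 and IRF7, was at 102 CPM in OPA1KO and 89.1 CPM in WT cells with separated groups (0.19 ± 0.09, edgeR adjusted p = 0.738), and Ddx58, which encodes the RNA sensor RIG-I, at 10.6 CPM in OPA1KO and 13.5 CPM in WT cells (−0.36 ± 0.20, adjusted p = 0.816). Negative regulators had 7 of 17 higher and 10 lower (median −0.02), with Pias4, a SUMO ligase gene, at 2.23 CPM in OPA1KO and 1.14 CPM in WT cells (0.94 ± 0.49) and the phosphatase gene Ptpn6 at 22.2 CPM in OPA1KO and 18.3 CPM in WT cells (0.28 ± 0.16, edgeR adjusted p = 0.804 and 0.825). Target genes had 11 of 34 higher and 23 lower (median −0.05, against −0.03 for all gene ends). The chemokine gene Cxcl10 was at 25.1 CPM in OPA1KO and 30.7 CPM in WT cells with separated groups (−0.29 ± 0.13), and the GTPase gene Ifi47 at 3.38 CPM in OPA1KO and 4.99 CPM in WT cells (−0.54 ± 0.30), with edgeR adjusted p of 0.744 and 0.821. 

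Markers were read at gene ends in the same way. Of the cDC1 markers 11 of 12 had a region (Itgae had none), with summed levels of 306 to 342 CPM in OPA1KO and 321 to 345 CPM in WT libraries. Monocyte and macrophage markers had regions at 14 of 15 genes, with sums of 192 to 219 CPM in OPA1KO and 208 to 249 CPM in WT libraries. Their median log2 fold change was −0.29, with 10 of 14 lower and 0 called. Over all 10566 tested gene-end regions, 6528 were lower and the median was −0.03. Of the T cell markers 3 of 8 had a region, with sums of 73.1 to 101 CPM in OPA1KO and 85.3 to 110.3 CPM in WT libraries. NK cell markers had 2 of 5, neutrophil markers 2 of 6, red cell markers 3 of 7, plasmacytoid DC markers 3 of 6 and cDC2 markers 4 of 6. All 4 cDC2 regions were lower in OPA1KO cells (median −0.13). Median log2 fold changes were also negative for cDC1 (−0.005), B cell (−0.06), T cell (−0.07) and NK cell (−0.21) regions. They were positive for plasmacytoid DC (0.02), neutrophil (0.12) and red cell (0.27) regions. No region of the table lay at the ends of the T cell markers Cd3e, Cd3g, Lck, Bcl11b and Trac. The same held for the neutrophil markers Csf3r, Elane, Ly6g and Mpo, and for Pax5 and Ncr1. Other markers of the same cells had open regions. Over all 8 libraries Cd3d, a chain of the T cell receptor complex, was at 56.7 CPM, Cd5 at 32.8 CPM and Cd4 at 3.59 CPM. The neutrophil markers S100a9 and S100a8 were at 32.9 CPM and 14.7 CPM. The median level per length of the 3 T cell regions was 74.1 CPM per kb, above the 37.3 CPM per kb of the 11 cDC1 regions. These medians leave out markers without a region, which were most of the T cell list. Whether a gene-end region belongs to a neighbouring gene was not checked. Of the B cell markers, Cd79a was at 21.3 CPM, Ms4a1 at 7.11 CPM and Ebf1 at 6.36 CPM. Their sums were 30.4 to 36.4 CPM in OPA1KO and 32.6 to 42.2 CPM in WT libraries, and all 3 had a negative log2 fold change, with 0 called. The part of other cells in the values above was not tested.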

How the data were processed

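ATAC-seq counts of 8 cDC1 libraries, 4 OPA1KO and 4 WT, were analysed as deposited by the authors: whole-number counts over a shared region set, without normalization. The tools in the submitters' processing notes are MACS2 (2.1.0.20150603), bedtools, SAMtools, Picard (1.65) and cutadapt (1.9), and the builds mm10 and GRCm38. How they were set, whether read ends were shifted and how the regions were defined is not given in the sources used here. Between 54.1% and 59.9% of a library's counts were even, and whether both ends of a pair were counted is not known. Whether starts count from 0 or 1 is not given either, and coordinates are as in the table. Columns were assigned by library name.

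Regions were filtered with filterByExpr (59247 of 59906 kept), scaled with TMM factors (0.947 to 1.03) and tested with edgeR 4.0.16 in R 4.3.3 (glmQLFit with robust estimation, glmQLFTest, no covariates), with Benjamini-Hochberg adjustment over all regions and calls at 0.05. Standard errors and 95% intervals came from the same model. Gene windows summed the counts of regions within 25 kb of each RefSeq protein-coding model (GRCm38.p6). Promoter classes and sequences came from RefSeq windows. The procedure was tested on simulated data. The changes planted there were far larger than the differences at the members' promoters. That test therefore cannot show whether such small differences would be found. Within groups, no library's counts were a copy of another's (chi-square per degree of freedom 2.16 to 4.75). Libraries were not compared between groups, and the check cannot tell technical repeats of a sample from separate samples.

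The members, lists and tests were chosen with earlier results of these data known. Named regions were, per member, the strongest region in the gene or within 1 kb of it, that with the smallest p, and any call, plus the 3 strongest regions over 1 kb from protein-coding gene ends. For each pathway list, called regions or the 2 with the smallest p were named. Alternatives were DESeq2 size factors or total counts, DESeq2 1.42.0, limma-voom (limma 3.58.1), a stricter filter (at least 2 CPM in 4 libraries) or none, a replicate block, leaving out each library, and windows of 0, 10 or 50 kb.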

Additional observations from a re-analysis of the deposited data

Results flagged for a closer look

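Among 60 groups of 4 libraries tested for a library far from the others (Dixon's test, which flags about 1 in 20 groups by chance), 2 stood out. At the Irf1 promoter region, OPA1KO replicate 4 was at 68.4 CPM, while the other 3 OPA1KO libraries were at 86.5 to 89.4 CPM. At the Irf2 promoter region, WT replicate 2 was at 118.9 CPM, while the other 3 WT libraries were at 92.4 to 94.9 CPM. Without these libraries the log2 fold changes were 0.02 at Irf1 and 0.14 at Irf2, and neither was called.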

How the results depend on the processing

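No member region and no member gene window was called under any alternative run, at 0 throughout, including windows of 0, 10 and 50 kb. The median log2 fold change of the member regions ran from −0.05 to 0.01 over the fits that left out 1 library. Over all regions, edgeR called 12. DESeq2 called 38, limma-voom 4, and the fit with the replicate block 1. Leaving out 1 library gave 1 to 68 calls: 68 without WT replicate 2, 22 without OPA1KO replicate 4, 4 without OPA1KO replicate 2, and 1 without OPA1KO replicate 1 or 3 or WT replicate 3 or 4. Same-numbered libraries did not deviate together (correlations of −0.12 to −0.01). The labels do not say whether the numbers pair samples, and these correlations cannot settle it. The fit with the block called 0 member regions.

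Of 477 alternative values of named regions and gene windows, 32 changed sign, none of them called. With total counts the Irf7 promoter was at 0.0046. The Irf3 window was at 0.070 over the gene span alone and 0.063 within 10 kb, and the Irf9 window at 0.12 within 10 kb. That Irf9 window holds 2 regions, the Irf9 promoter and the Rec8 promoter (log2 fold changes of −0.04 and 0.95). Leaving out 1 library gave ranges across 0 at the promoters of Irf7 (−0.050 to 0.051), Irf1 (−0.11 to 0.022), Irf2 (−0.027 to 0.14), Stat2 (−0.015 to 0.074) and Stat3 (−0.057 to 0.083). The same held at the Irf7 region inside the gene (−0.032 to 0.22) and at the Irf1 regions at 53763382 (−0.13 to 0.012) and 53794632 (−0.12 to 0.12). For gene windows these ranges were −0.038 to 0.017 in Irf3, −0.041 to 0.060 in Irf7, −0.062 to 0.073 in Irf1, −0.014 to 0.030 in Irf2, −0.038 to 0.038 in Irf9, −0.031 to 0.066 in Stat3 and −0.066 to 0.020 in Stat4. The cause was not tested. Regions of few counts have wide intervals, so differences as small as those at the members' promoters could not be detected there. At the promoters themselves each log2 fold change was smaller than its standard error, so such differences were not detectable there either.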
